A study of Mus musculus with 2 samples.

Results

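Among 107377 accessible chromatin regions of tanycytes and their progeny, 500 were picked out for losing more accessibility in alpha2 than in beta2 tanycytes when the Nfia, Nfib and Nfix genes were targeted. Tanycytes are a glial cell of the hypothalamus that resembles radial glia and borders the third ventricle. Alpha tanycytes lie along the ventricle wall, beta1 cells lower on the wall and floor, and beta2 cells over the median eminence, where hypothalamic hormones reach the portal blood. NFIA, NFIB and NFIX are DNA-binding factors known for driving glial differentiation, and chromatin at their sites can close when they are lost. The wider study addresses how tanycytes lose and regain the capacity to form neurons.

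Single-cell ATAC-seq marks DNA that the Tn5 transposase can reach in single nuclei. Both libraries came from GFP-positive cells of the mediobasal hypothalamus, sorted at postnatal day 8. Control mice carried Rax-CreER and the reporter CAG-lsl-Sun1-GFP, and deficient mice carried in addition floxed alleles of Nfia, Nfib and Nfix on both chromosomes (Nfialox/lox;Nfiblox/lox;Nfixlox/lox). Rax-CreER acts in Rax-expressing cells, so GFP marks tanycytes and what they give rise to, in both genotypes. Each genotype had 1 library. The sources used here do not say how many mice were pooled or how complete recombination was.

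The control library held 8948 cells and the deficient library 13337 cells. A detection is a region found open in a cell. Alpha2 tanycytes had 4306 control cells with 28371961 detections and 4902 deficient cells with 26067852. Beta2 tanycytes had 904 and 1003 cells with 4917235 and 4524079 detections, so a region was measured with far fewer detections in beta2 than in alpha2 cells. The cell types are the authors' own. They could not be set against marker genes, because the region numbers are not paired with genes or positions in the files used here, and for the same reason no sequence is shown. Of control alpha2 cells 93.9% were nearest to the alpha2 profile of the other cells of their library, as were 85.0% of deficient ones. For beta2 cells the shares were 86.0% and 85.2%. They were 67.3% and 73.6% for beta1 tanycytes, 44.2% and 37.2% for alpha1 tanycytes, 79.0% and 83.1% for neurons, 57.2% and 49.6% for oligodendrocyte precursor cells and 56.3% and 27.8% for astrocytes. For ependymal cells they were 0.752% and 39.2%, and for proliferating tanycytes 0% and 46.4%. The control profiles of these types rested on few cells, of 133 and 63 in all, against 265 and 1033 deficient cells. The check therefore cannot decide on the names of these types in the control library. Of cell barcodes, 204 occurred in both libraries.

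The choice went as follows. The level of a region in a cell type of a library is the number of cells in which it was detected, per 1000000 detections of that type and library (detections per 1000000 are written CPM below). The difference D is log2(level + 5) in the deficient library minus the same in the control library. Regions needed at least 100 detections in beta2 tanycytes of both libraries together, which 26106 did. Of these, 3253 had a D of -0.3 or lower in alpha2 tanycytes and are called candidates below. The 500 regions were selected on measured values, the lowest alpha2 D minus beta2 D among the candidates, and the remaining 2753 are the other candidates. Alpha2 and beta2 values of these regions are therefore a description of the choice. Since each genotype is represented by a single library, differences between genotypes carry no p-value. Intervals are exact 95% intervals for counting error only. For summed detections they hold no cell-to-cell variation, for shares of cells they are binomial over cells, and in neither case do they cover differences between animals.

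By the choice, the regions were much lower in deficient alpha2 cells and little lower in deficient beta2 cells. In alpha2 cells they made up 10.7 (control) and 5.89 (deficient) per 1000 detections, a log2 ratio of -0.87 (-0.88 to -0.86). In beta2 cells they made up 10.7 and 9.35 per 1000, a log2 ratio of -0.20 (-0.22 to -0.18). The alpha2 D of single regions ran from -1.70 to -0.30 (median -0.59), and the beta2 D from -1.25 to 0.51 (median -0.11). The beta2 D was above 0 in 148 of the 500 regions. Of the 500, 138 had a beta2 D of -0.3 or lower, so they were lower in both types and lower still in alpha2. A further 357 lay between -0.3 and 0.3, and 5 were at 0.3 or higher. Over all 26106 regions with enough detections, 13.2% had a beta2 D at or below -0.3, 7.87% had one at or above 0.3, and 12.5% had an alpha2 D at or below -0.3. Of the other candidates 74.1% had a beta2 D at or below -0.3. The choice used these differences, so nothing is read from the shares. By the choice, a region with a deep loss in beta2 had a deeper one in alpha2, so no link between the 2 types is read from the plot of both differences.

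**Figure D1:**
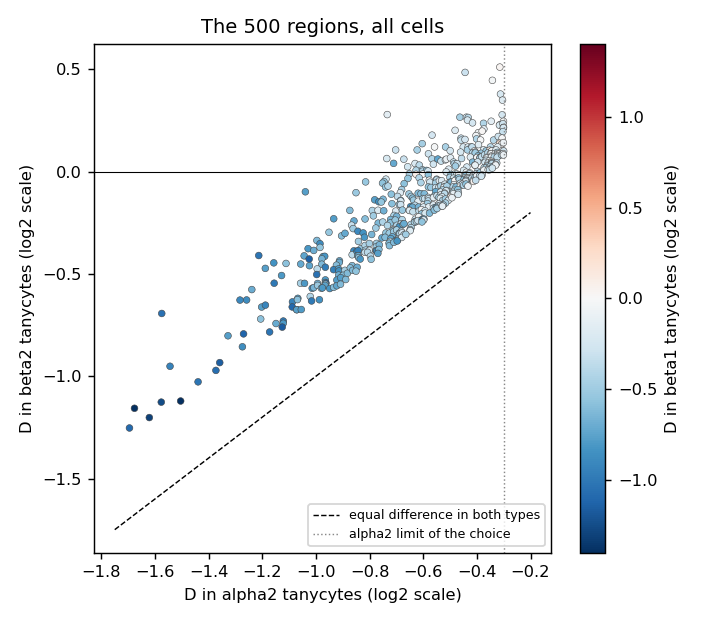
D of each of the 500 chosen regions in alpha2 (x axis) and beta2 tanycytes (y axis), on the log2 scale, coloured by D in beta1 tanycytes; the dashed line marks equal D in both types and the dotted line the alpha2 limit of -0.3. Every point lies above the dashed line by the choice, and beta2 values run from -1.25 to 0.51.

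The margin between the types was small for many regions compared with counting error. The difference of D ran from -1.01 to -0.36 with a median of -0.44. The median region had 159.5 beta2 detections over both libraries, and the 95% interval of its single-region log2 ratio was typically 0.95 wide in beta2 and 0.43 wide in alpha2 cells. At the limit of the choice, region 43122 and region 10857 were the last inside and region 6709 and region 62167 the first outside. Region 43122 had an alpha2 D of -0.91 and a beta2 D of -0.55, and region 62167 had -0.72 and -0.37. Region 10857 had -0.70 and -0.34, and region 6709 had -0.33 and 0.03. All 4 differed by -0.36 between the types (alpha2 D minus beta2 D).

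To see how much of the margin stood apart from the choice, the same rule was applied to every other cell of each type and library in the order of the annotation (odd-numbered cells), with the minimum lowered to 50 detections, and the regions were measured in the even-numbered cells, and the reverse. These cells come from the same 2 libraries and are not replicates. In the cells not used, the regions of these lists were lower in beta2 tanycytes too. The list from the odd-numbered cells had a beta2 log2 ratio of -0.08 in those cells and of -0.41 (-0.43 to -0.38) in the even-numbered cells. The list from the even-numbered cells went from -0.03 to -0.38 (-0.41 to -0.35). Alpha2 ratios moved less, from -0.88 to -0.78 (-0.79 to -0.77) and from -0.86 to -0.76 (-0.77 to -0.75). For these lists the name "spared in beta2" thus held only in the cells that chose them. The lists shared 264 and 260 regions with the 500, so the shift was not measured on the 500 themselves. Each list was also chosen from fewer beta2 detections than the 500. The regions are called by the choice here.

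A smaller gap between the types remained in the cells not used. There the list from the odd-numbered cells made up 10.1 (control) and 5.89 (deficient) per 1000 detections of alpha2 cells, and 10.6 and 7.99 of beta2 cells. Its levels were near each other in the 2 control types and lower in alpha2 than in beta2 in the deficient library. The alpha2 ratio minus the beta2 ratio was -0.37 for this list and -0.38 for the other, where the other candidates of the same choices had -0.14 both times. Single regions followed. Alpha2 D was below beta2 D in 397 of 500 regions in the even-numbered cells, against 49.2% of all 26404 regions tested there and 58.5% of the other candidates. In the odd-numbered cells it was so for 382 of 500, against 48.4% and 58.7%. In the even-numbered cells 263 of 500 regions had a beta2 D at or below -0.3, against 16% of all regions and 66.2% of the other candidates. In the odd-numbered cells 234 had, against 16.8% and 67.2%. An alpha2 D at or below -0.3 was kept by 413 regions in the even-numbered cells, against 13.1% of all regions and 82.9% of the other candidates. In the odd-numbered cells 373 kept it, against 12.8% and 82%. For these lists the loss in beta2 cells was thus nearer to that of the other candidates than the choice made it appear, and still smaller.

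**Figure D2:**
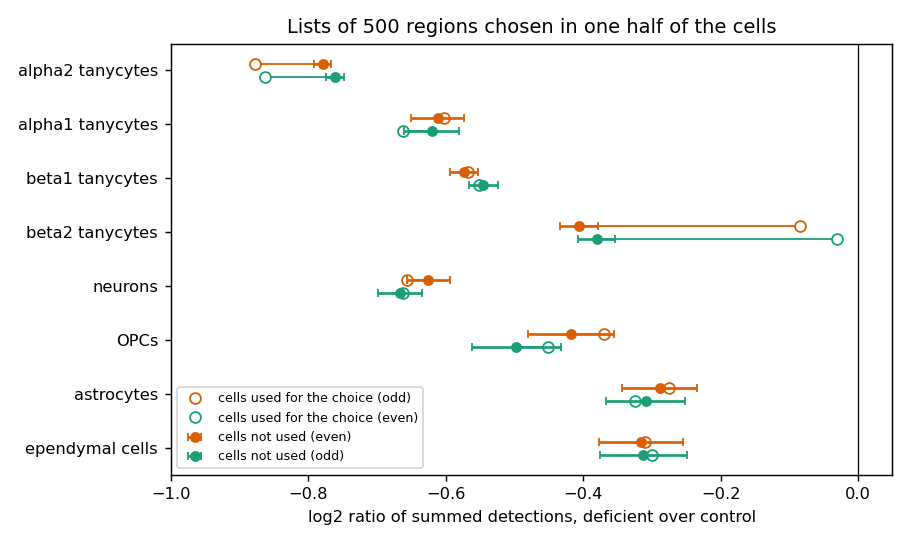
Log2 ratio of summed detections (deficient over control, x axis) of 500 regions chosen in odd-numbered (orange) or even-numbered cells (green), in the cells used for the choice (open points) and in the others (filled points, with exact 95% counting intervals). Beta2 values move from -0.08 to -0.41 and from -0.03 to -0.38, while the types outside the choice keep their place; proliferating tanycytes lie off the axis.

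The gap was seen at each level of beta2 detections. Of the list from the odd-numbered cells, the 166 regions with 98 to 303 beta2 detections had, in the even-numbered cells, a ratio of -0.32 (-0.36 to -0.28) in beta2 and -0.72 in alpha2 tanycytes. The 167 regions with 66 to 98 detections had -0.46 (-0.51 to -0.41) and -0.82, and the 167 with 50 to 66 had -0.53 (-0.59 to -0.47) and -0.82. For the list from the even-numbered cells the values were -0.32 (-0.36 to -0.28) and -0.70 for the regions with most detections, -0.42 and -0.80 for the middle ones, and -0.48 and -0.82 for those with fewest. In all, 95 regions were chosen in both sets of cells (19% of each list). The lists took 500 of 3338 candidates in the odd-numbered cells and 500 of 3434 in the even-numbered cells. All 95 were among the 500, which the choice favours because the 500 were chosen with both sets of cells together. No stable core is read from this overlap. In types outside the rule these 95 had ratios of -0.73 in alpha1, -0.64 in beta1 and -0.85 in neurons.

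The reverse choice gave a smaller gap in the cells not used for it. The 500 regions that were lower in beta2 tanycytes (D of -0.3 or lower) and least lower in alpha2 had a ratio of -0.74 in beta2 and -0.10 in alpha2 cells when all cells were used. For the 2 such lists chosen in odd- and even-numbered cells, the beta2 ratio was -0.82 and -0.85 in the cells used. In cells not used for the choice it was -0.23 and -0.26, and the alpha2 ratio minus the beta2 ratio was 0.18 for each. These regions were close to their control level in other types, with -0.09 in alpha1, -0.10 in neurons and -0.19 in beta1 tanycytes. The regions lost in alpha2 cells had lower ratios in each of these types (-0.64, -0.72 and -0.57). The reverse choice filtered on beta2 values, which rest on fewer detections than the alpha2 values of the first choice. The part of this in the contrasts between the 2 choices was not tested.

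Outside the types used for the choice, the chosen regions were lower in the deficient library in all 7 types. In beta1 cells they made up 11.8 and 7.92 per 1000 detections (control and deficient), a log2 ratio of -0.57 (-0.59 to -0.56). In alpha1 cells they made up 11.02 and 7.06, a ratio of -0.64 (-0.67 to -0.62). Both values lay between those of alpha2 and beta2 tanycytes, which the choice had set apart. In the cells not used for the choice, beta1 had ratios of -0.57 and -0.55 and alpha1 of -0.61 and -0.62. These were nearer to the beta2 values there (-0.41 and -0.38) than with all cells, and still lower. Of the 500 regions, 344 had a D of -0.3 or lower in beta1 cells, against 11.7% of all 26106 regions and 73.6% of the other candidates. In alpha1 cells 334 had, against 15.5% and 64.5%. Thus the loss in alpha1 and beta1 cells was about as common among the chosen regions as among the other candidates, whose summed ratios were -0.57 in alpha1 and -0.58 in beta1 cells.

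Of the 7 types, proliferating tanycytes, the dividing cells of the lineage, had the lowest ratio and neurons the next. In neurons the chosen regions made up 7.11 and 4.33 per 1000 detections, a ratio of -0.72 (-0.74 to -0.69), against -0.65 (-0.65 to -0.64) for the other candidates. In neurons 330 regions had a D at or below -0.3, against 12.6% of all regions and 61.5% of the other candidates. In proliferating tanycytes the levels were 10.6 and 4.42 per 1000, a ratio of -1.27 (-1.32 to -1.21), against -1.06 for the other candidates. This value rests on 63 control cells with 3412 detections in these regions, a median of 6 per region. There 402 regions had a D at or below -0.3, against 27% of all regions and 77.3% of the other candidates.

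Of these 7 types, OPCs, astrocytes and ependymal cells lost least. Oligodendrocyte precursor cells, abbreviated OPCs, had 8.63 and 6.11 per 1000, a ratio of -0.50 (-0.54 to -0.45), where the other candidates had -0.41 (-0.43 to -0.39). Astrocytes had 9.28 and 7.49, a ratio of -0.31 (-0.35 to -0.27). In ependymal cells, which carry cilia and line the ventricle, the values were 9.51 and 7.53, with a ratio of -0.34 (-0.38 to -0.29). In astrocytes 210 regions had a D at or below -0.3, against 18.6% of all regions and 42.8% of the other candidates. In ependymal cells 226 had, against 21.2% and 46.1%, and in OPCs 283, against 20.6% and 52.5%. These types had a median of 29, 17 and 18.5 control detections per region, so D of a single region was imprecise there. When only cells nearest to the profile of their own type were kept, which left 56.3% of control and 27.8% of deficient astrocytes, the ratio was 0.035 (-0.039 to 0.11) in astrocytes, -0.29 in OPCs and -0.39 in alpha1 tanycytes. In ependymal cells it was -0.22 (-0.74 to 0.36), with 0.752% of the 133 control cells kept. The control side of that value thus rests on almost no cells. With all cells, beta2 tanycytes had the smallest loss of the 9 types. In the cells not used for the choice, astrocytes (-0.29 and -0.31) and ependymal cells (-0.32 and -0.31) had smaller losses than beta2 tanycytes (-0.41 and -0.38), although both intervals overlapped that of beta2 in the odd-numbered cells.

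**Figure D3:**
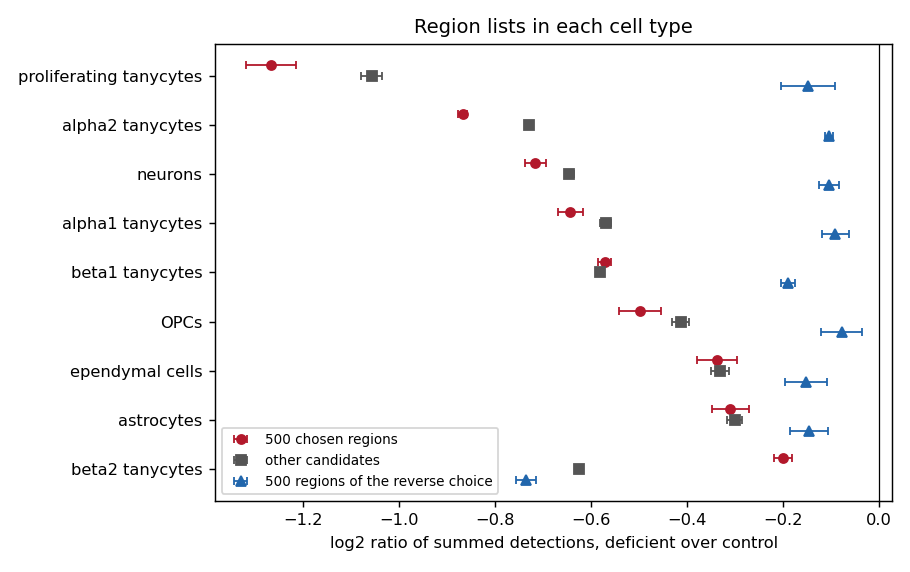
Log2 ratio of summed detections (deficient over control, x axis) in each of 9 cell types for the 500 chosen regions (red circles), the 2753 other candidates (grey squares) and the 500 regions of the reverse choice (blue triangles), with exact 95% counting intervals and all cells. The chosen regions and the other candidates lie near each other in most types and part in beta2 tanycytes (-0.20 against -0.62), where the choice set both; the reverse choice lies between -0.19 and -0.08 outside beta2.

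How many types a region was low in also set the chosen regions little apart. Counted over the 6 types outside the rule other than proliferating tanycytes, 41 of the 500 (8.2%) had a D at or below -0.3 in all 6 and 12 (2.4%) in none. Among the other candidates the shares were 7.88% and 2.18%. Across the 500 regions D in beta1 tanycytes went with D in neurons (Spearman rho 0.53) and in alpha1 tanycytes (0.51), and less with D in OPCs (0.34) and astrocytes (0.17). These are descriptions over regions measured in the same libraries, and the types differ in detections per region. The 138 regions that were also lower in beta2 cells had ratios of -0.98 in alpha1, -0.92 in beta1, -1.25 in neurons and -0.40 in astrocytes. The 357 with a beta2 D near 0 had -0.49, -0.44, -0.52 and -0.27. That these groups differed in alpha2 cells too (-1.28 and -0.70) follows from the choice. Whether the contrast in the other types goes with the beta2 or with the alpha2 difference therefore cannot be told apart.

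In the control library the chosen regions as a set were detected in all 9 types, and no single type held the highest level of most of them. Leaving out proliferating tanycytes, 129 of the 500 had their highest control level in beta2 cells, 104 in beta1, 86 in alpha1 and 35 in alpha2 cells. Of the other candidates 36.3% were highest in beta2 cells, against 25.8% of the chosen regions, a difference the choice can set because it uses the control level of beta2. The median level in the control library was 20.6 CPM in alpha2, 18.1 in beta2, 21.9 in beta1, 20.4 in alpha1 and 12.5 in neurons. In the deficient library it was 10.2, 15.7, 13.9, 12.2 and 7.11.

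The loss was a shift of most cells. Each cell was thinned to 2000 detections and scored for the list of 500 regions that was chosen in the other set of cells. A control alpha2 cell had 19.4 ± 4.86 such regions among its 2000 detections (mean and SD over 4031 cells, median 19) and a deficient one 11.3 ± 4.76 (4574 cells, median 11). Of deficient alpha2 cells 57.0% (interval 55.5 to 58.4%) were below the 5th percentile of control alpha2 cells, against 4.66% of control cells; without thinning the share was 77.5%. A minority kept a control-like score, since 7.80% (7.04 to 8.62%) reached the control median, which 55.5% of control cells reached. The cells left out for having fewer detections were 275 and 328.

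In beta2 tanycytes the shift was smaller. A control cell had 21.6 ± 4.68 of these regions (864 cells) and a deficient one 16.8 ± 4.64 (915 cells). Of deficient beta2 cells 25.03% (22.3 to 28.0%) were below the control 5th percentile, or 53.7% without thinning. The control median was reached by 16.4% (14.1 to 19.0%), or 9.95% without thinning. Beta1 cells lay between alpha2 and beta2 cells, with 42.3% (40.2 to 44.5%) below the percentile and 66.6% without thinning. Alpha1 cells had 43.4% (39.5 to 47.5%) and 65.8%. In proliferating tanycytes the share was 80.5% against only 51 control cells. In neurons it was 15.6%, where control cells already varied widely (median 12, 5th percentile 5). Thinning left out 40 control and 88 deficient beta2 cells, 145 and 315 beta1 cells, and 34 and 52 alpha1 cells.

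**Figure D4:**
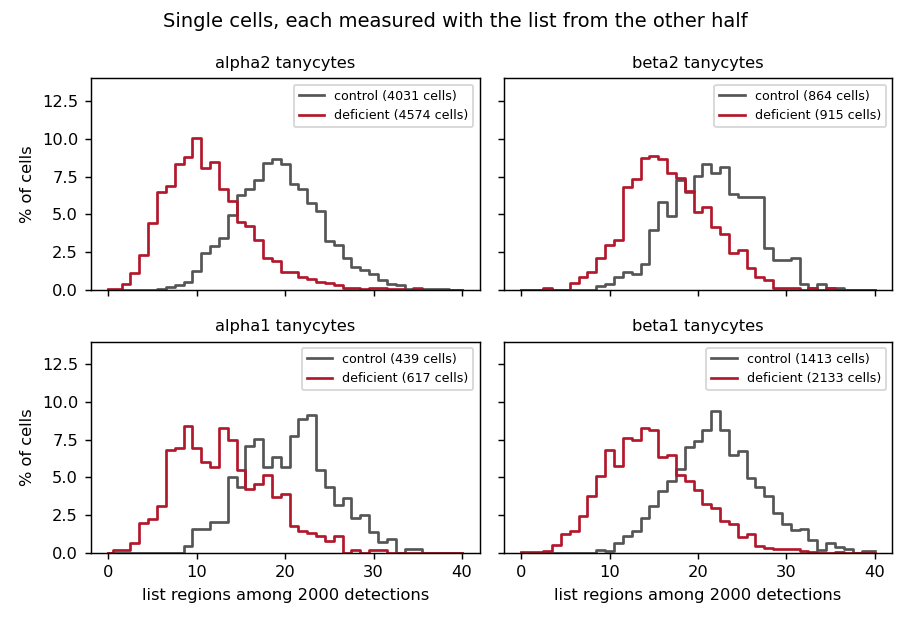
Percent of cells (y axis) by the number of list regions among 2000 detections of a cell (x axis, the last step holding 40 or more), for control (grey) and deficient cells (red) of 4 tanycyte subtypes, each cell measured with the list chosen in the other set of cells. The distributions of alpha2 cells lie farthest apart (medians 19 and 11) and those of beta2 cells overlap more (medians 22 and 16).

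The alpha2 loss was similar in shallow and deep cells. Scored in the same way without thinning, the alpha2 log2 ratio was -0.72 in cells with up to 3000 detections, -0.81 in those with 3000 to 5000, -0.77 with 5000 to 8000, -0.74 with 8000 to 12000 and -0.71 above 12000. In beta2 cells the loss was larger in deeper cells, with -0.32, -0.35, -0.44 and -0.47 in the first 4 of these classes. In beta1 cells it was -0.58, -0.58, -0.56 and -0.54. The gap between alpha2 and beta2 tanycytes was present in each of the first 4 classes and narrower in the deeper 2. Deficient beta2 cells were shallower than control ones (median 4049 against 4814.5 detections), and the part of depth in the beta2 value was not tested.

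Single regions illustrate the range. They are given as levels in CPM with the number of cells behind them. Region 19375 had the largest margin. In alpha2 tanycytes it was detected in 429 control and 185 deficient cells, at 15.1 (13.7 to 16.6) and 7.10 (6.11 to 8.20) CPM. In beta2 cells it was detected in 53 and 64, at 10.8 (8.07 to 14.1) and 14.1 (10.9 to 18.1). Its beta2 intervals overlapped and its alpha2 intervals did not, a contrast that the choice favours. In the odd-numbered cells its beta2 D was 0.60 and in the even-numbered cells 0.00, so the apparent gain came from the odd-numbered cells.

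Region 49871 showed loss in every type but beta2. It was found in 653 control and 225 deficient alpha2 cells, at 23.0 and 8.63 CPM. In beta2 cells it was found in 217 and 185, at 44.1 (38.5 to 50.4) and 40.9 (35.2 to 47.2). In beta1 cells its level was 41.8 and 22.4, in alpha1 36.4 and 13.9, and in ependymal cells 32.0 and 11.3. Its control level was similar in beta2 and beta1 cells. Only the beta1 level was clearly lower in the deficient library (log2 ratio -0.90, -1.16 to -0.64, against -0.11, -0.40 to 0.18). The choice favours a small beta2 loss and did not use beta1, so no sparing is read from this contrast.

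Region 7289 had a higher level in deficient than in control beta2 cells, a value the choice favours, with 45 control and 67 deficient cells, at 9.15 and 14.8 CPM (log2 ratio 0.69, 0.13 to 1.27). Its alpha2 levels were 26.1 and 17.9 CPM, from 741 and 466 cells. Beta2 cells had the lowest control level of the 9 types for this region. Its beta2 D was 0.45 and 0.52 in the odd- and even-numbered cells. In OPCs its level was 49.3 and 51.3, with overlapping error.

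Region 50271 shows that a large margin could come with loss in both types. Its level was 28.0 and 6.06 CPM in alpha2 cells (793 and 158 cells) and 19.5 and 10.2 in beta2 cells (96 and 46 cells). The log2 ratios were -2.21 (-2.46 to -1.96) and -0.94 (-1.48 to -0.42). In neurons it was -2.55 (-3.12 to -2.01), and in astrocytes 0.12 (-0.56 to 0.80). Regions 19375, 49871 and 7289 were also the 3 with the lowest mean difference among the 95 chosen in both sets of cells. That ranking uses the same cells as the choice, so it adds no support.

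The 4 chosen regions with most detections in control alpha2 cells behaved in different ways in beta2 cells. Region 57598 was found in 1672 control and 717 deficient alpha2 cells, which is 38.8% and 14.6% of cells, and in 15.9% and 8.18% of beta2 cells; its beta2 log2 ratio was -0.69 (-1.10 to -0.29). Region 51342 had 58.6 and 29.3 CPM in alpha2 cells and 29.5 and 23.0 in beta2 cells, with a beta2 interval that reached 0 (-0.36, -0.74 to 0.01). Both of these were about as open in control beta2 cells as in deficient alpha2 cells. Region 80269 had 58.8 and 37.6 CPM in alpha2 cells and 68.9 and 62.8 in beta2 cells, where the difference was within counting error. Region 97088 had 57.0 and 42.4 in alpha2 and 51.5 and 54.2 in beta2 cells, again within counting error in beta2, and its beta1 level was 58.6 and 41.3.

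**Figure D5:**
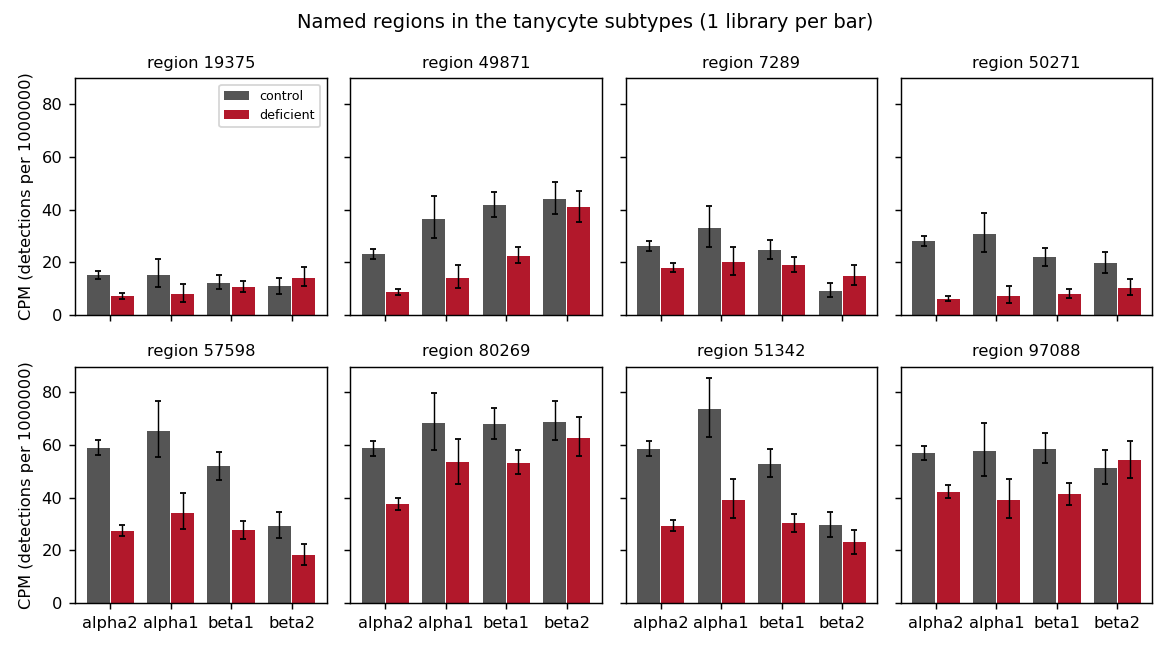
CPM (y axis) of 8 chosen regions in alpha2, alpha1, beta1 and beta2 tanycytes of the control (grey) and deficient library (red), with exact 95% counting intervals; the upper row has the largest margins and the lower row the most detections in control alpha2 cells. Alpha2 bars are lower in the deficient library for all 8 by the choice, while the beta2 log2 ratio has an interval that includes 0 for regions 19375, 49871, 51342, 80269 and 97088. The choice also favours small beta2 losses.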

How the data were processed

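Per the labels' protocols, Cell Ranger ATAC 1.1.0 processed the reads at its defaults. Per the submitters' processing notes MACS2, Seurat, Signac 0.2.5 and Cell Ranger 3.1 were used with mm10. The sources used here do not say how regions were called, doublets treated or types named. The authors deposited 107377 regions by 22285 cells as presence or absence, with 112651747 entries and no counts of fragments, and an annotation of library and type for each cell. The annotation's order gave the matrix cells their names. This order rests on the equal number of cells and on the nearest-profile check in the text.

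Detections were summed over cells of a type and library. Presence saturates at 1 per cell, which understates regions open in most cells. The chosen regions and the lists compared were set with earlier results of these data known. Regions are named by a rule: the 4 with the lowest difference, the 4 with most detections in control alpha2 cells, 2 on each side of the limit, and the 3 lowest of those chosen in both sets of cells. The choice and the ratios were checked on simulated data in which some regions were lowered in alpha2 cells only. Loss shared by both types, as in these data, was not simulated. Median detections per cell were 4549.5 and 4042. Alternatives covered scaling, pseudocount, minimum, thinning, deep cells, list length, fold threshold and cell assignment. Software was scipy 1.17.1, pandas 2.3.3, matplotlib 3.10.9 and numpy 2.4.6 under Python 3.11.15.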

Additional observations from a re-analysis of the deposited data

How the results depend on the processing

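The summed log2 ratio of the chosen regions was below 0 in 88 of 89 alternative values over 9 types. The exception was 0.035 (-0.039 to 0.11) in astrocytes when only cells nearest to the profile of their own type were kept, an alternative chosen after seeing the data that kept 56.3% of control and 27.8% of deficient astrocytes. The choice itself favours alpha2 values below 0, and all alternatives use cells of the same 2 libraries, so these are not independent checks. Values follow in the order alpha2, beta2, alpha1, beta1, where all cells gave -0.87, -0.20, -0.64 and -0.57. Regions chosen in odd-numbered and measured in even-numbered cells gave -0.78, -0.41, -0.61 and -0.57, and the reverse gave -0.76, -0.38, -0.62 and -0.55. With median-of-ratios scaling, which moved each type by at most 0.08, they were -0.94, -0.24, -0.67 and -0.65. Regions chosen again with a pseudocount of 1 gave -0.89, -0.13, -0.69 and -0.58, and shared 336 of 500 regions. A minimum of 50 detections gave -0.99, -0.12, -0.75 and -0.65 (209 shared), and a minimum of 200 gave -0.71, -0.28, -0.56 and -0.51 (171 shared). Thinned cells gave -0.88, -0.16, -0.68 and -0.58. Without the deepest 5% of cells the values were -0.88, -0.19, -0.64 and -0.58. The first 250 regions gave -0.90, -0.13, -0.68 and -0.59. Cells nearest to their own type gave -0.92, -0.16, -0.39 and -0.50, and no value for proliferating tanycytes, of which no control cell was kept. The alpha2 ratio minus the beta2 ratio ran from -0.87 to -0.37 over the 10 alternatives and was nearest 0 in the cells not used for the choice. The beta2 ratio was the highest of the 9 types with all cells, but not in the cells not used for the choice, with a minimum of 200 or among cells nearest to their own type. A threshold of -0.6 in place of -0.3 lowered the count of regions by more than 1.5 times in 6 of the 7 types outside the rule, all but proliferating tanycytes. The cause of these shifts was not tested. No paired analysis was possible because each genotype has 1 library. Beta2 depth limits single regions: the typical 95% interval of a beta2 log2 ratio was 0.95 wide.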
